A study of Homo sapiens with 4 samples.

Results

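Genes of G2 and mitosis were examined in Jurkat cells, a human T-cell acute lymphoblastic leukemia line, after knockdown of LEF1. The set was given as 50 gene symbols from CDK1 and the mitotic cyclins to the kinetochore, spindle and cytokinesis genes, and all 50 were found among the 19775 genes that the arrays name. A gene was read from the brightest of its probe sets (groups of short probes for 1 transcript) that map to a single symbol, by the mean over the 4 arrays. The groups compared were cells transfected with 100 nM of a pool of LEF1 siRNAs (siLEF1) and cells transfected with 100 nM of a pool of non-targeting siRNAs (siNT), both with the same reagent and both harvested 24 h later. Each group had 2 Affymetrix arrays, which the labels call biological replicates. The labels do not say that the replicates came from separate cultures on separate days, so that p-values measure the spread between these arrays. Non-transfected cells were not analysed here, and neither was any other cell line.

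These genes drive the last part of the cell cycle. Cyclin A and the B cyclins activate CDK1, which starts mitosis. Aurora and Polo kinases then build the spindle, the kinetochore holds chromosomes to it, the checkpoint delays anaphase until all are attached, and the anaphase-promoting complex, a ubiquitin ligase, ends mitosis by marking cyclin B and securin for destruction. Most of the genes are transcribed late in the cycle. They are kept silent in early phases by the DREAM complex and switched on in G2 by MYBL2 and FOXM1 together with the MuvB core, and MuvB binds a promoter element named the cell cycle genes homology region (CHR). In leukemia cells growing in culture their RNA is read as a sign of how much a population divides. In a bulk sample, fewer cells in G2 and mitosis and less of the RNA in each such cell cannot be told apart.

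Promoters are shown first because the CHR is a feature that most of these genes shared and that their selection did not use. RefSeq promoter windows (from 250 bases before the transcription start to 50 after it, assembly GRCh38.p14) were used for 42 of the 50 genes (all but HMGB2, BIRC5, ANP32E, UBE2C, TPX2, CDCA2, AURKA and TTK), and a gene with several starts was counted once. The CHR was searched as TTTGAA, the CCAAT box as CCAAT, the E2F element as TTCCCGC and the TCF/LEF element as CTTTGAT, each on both strands. None of these words contains another, but in MKI67 a CHR and a CCAAT box share letters. In the stretches below, which are the 100 bases before a start, capitals mark these words. CDK1, CCNB2, PLK1 and MKI67 are shown as central genes with a CHR. BUB1B, GTSE1 and ANLN are CHR genes with larger differences between the groups. CCNB1 and NEK2 are shown as genes without the word TTTGAA in the window. Other forms of the elements were not searched, so that a gene without a word is not shown to lack the element.
CDK1 (chr10:60778378-60778477, plus strand): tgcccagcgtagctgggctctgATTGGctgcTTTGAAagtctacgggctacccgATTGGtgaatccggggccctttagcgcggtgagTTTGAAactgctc
CCNB2 (chr15:59105046-59105145, plus strand): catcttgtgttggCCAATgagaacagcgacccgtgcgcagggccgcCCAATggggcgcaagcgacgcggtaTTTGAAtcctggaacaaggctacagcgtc
PLK1 (chr16:23678789-23678888, plus strand): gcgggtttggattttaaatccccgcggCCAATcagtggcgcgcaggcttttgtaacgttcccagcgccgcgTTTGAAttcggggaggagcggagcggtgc
MKI67 (chr10:128126424-128126523, minus strand): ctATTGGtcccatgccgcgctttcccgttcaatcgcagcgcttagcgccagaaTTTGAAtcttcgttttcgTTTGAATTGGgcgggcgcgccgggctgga
BUB1B (chr15:40160969-40161068, plus strand): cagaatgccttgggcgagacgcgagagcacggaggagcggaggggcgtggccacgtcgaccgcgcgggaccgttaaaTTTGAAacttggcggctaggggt
GTSE1 (chr22:46296770-46296869, plus strand): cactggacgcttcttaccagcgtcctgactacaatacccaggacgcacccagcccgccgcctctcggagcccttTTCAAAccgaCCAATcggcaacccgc
ANLN (chr7:36389762-36389861, plus strand): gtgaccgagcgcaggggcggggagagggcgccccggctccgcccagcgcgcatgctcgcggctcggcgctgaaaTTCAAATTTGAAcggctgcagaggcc
CCNB1 (chr5:69167050-69167149, plus strand): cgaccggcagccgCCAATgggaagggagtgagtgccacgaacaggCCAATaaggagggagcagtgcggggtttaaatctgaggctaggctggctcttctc
NEK2 (chr1:211675622-211675721, minus strand): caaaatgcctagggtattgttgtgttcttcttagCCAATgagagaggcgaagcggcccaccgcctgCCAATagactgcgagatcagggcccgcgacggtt

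The CHR was found in 29 of the 42 genes (69%), against 18.2% of all 27305 genes with a window. In CCNB2 and PLK1 the element begins 29 bases before the start, in BUB1B 23 bases and in CDK1 13 and 69 bases before the start shown. Within the 100 bases before the start, 18 of the 42 genes (42.9%) held it, against 5.76% of all genes. Of 114 other mitotic genes with a window 55 (48.2%) held a CHR, and of 32 S phase genes 4 (12.5%). A CCAAT box, the site of the factor NF-Y, was present in 30 of the 42 (71.4%, all genes 39.7%). It was not particular to them, being in 24 of the 32 S phase genes (75%) and 75 of the 114 other mitotic genes (65.8%). The E2F word was found in 2 of the 42 (4.76%, all genes 7.82%), and in 18 of the 32 S phase genes (56.2%). The TCF/LEF word was found in 2 of the 42, LBR and CKAP2L (4.76%, all genes 3.18%). These are matches of letters in a window and not measured binding.

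**Figure D1:**
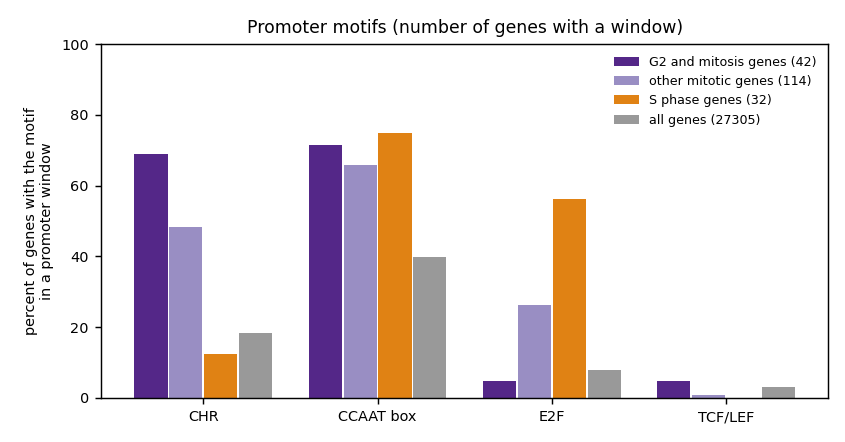
Percent of genes (vertical axis) with each of 4 promoter words (horizontal axis) in the RefSeq promoter window, for the G2 and mitosis genes, other mitotic genes, S phase genes and all genes. The CHR was in 69% of the G2 and mitosis genes and in 18.2% of all genes, while the E2F word was in 56.2% of the S phase genes and in 4.76% of the G2 and mitosis genes.

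Before the comparison, the target and the arrays were checked. LEF1 itself, by its brightest probe set, read 11.24 and 11.56 on the siLEF1 arrays and 12.30 and 11.92 on the siNT arrays (log2 signal), and the log2 difference of -0.71 (adjusted p = 0.191 from limma) did not pass. Further LEF1 probe sets had -0.93 and, at a dim signal, -0.19. The paper itself measured the knockdown at 24 h by other means. It reports less LEF1 mRNA by qRT-PCR and hardly any LEF1 protein by western blotting. The median signals of the arrays lay between 4.84 and 4.85. Of 12 T-cell markers, 11 were over the median of every array, CD3D and LCK among them, while CD2 was not, and this is the picture of a T-cell line. Of 4 B-cell, 4 myeloid and 5 epithelial or stromal markers read, 1, 1 and 2 were over the median on every array. Signal at the 5' end of ACTB minus that at its 3' end, a measure of RNA integrity and labeling, was (in log2 units) -1.08 and -1.55 on the siLEF1 arrays and -1.80 and -1.95 on the siNT arrays. For GAPDH it was -0.34 and -0.32 on the siLEF1 arrays and -0.39 and -0.65 on the siNT arrays, so that siLEF1 replicate 2 came first. The median G2 and mitosis gene followed the order of ACTB. Its deviations from the gene's own mean were 0.10 and 0.07 in siLEF1 replicates 1 and 2. In siNT replicates 1 and 2 they were 0.01 and -0.16. The part of RNA integrity in the differences below was not tested.

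No G2 or mitosis gene was called. With a call set, after the study's methods, at an adjusted p below 0.05 together with a change of more than 2-fold, limma called 0 of the 50 lower and 0 higher. Of all 19775 genes 0.263% were called lower and 0.0657% higher, and of all probe sets 0.183% and 0.0238%. The smallest adjusted p among the 50 was 0.231, and without moderation of the variances, or with no fold threshold, the count was also 0. At an unadjusted p under 0.05, 8 genes were higher in value and 1 was lower (all genes 7% and 11.5%). The log2 differences, siLEF1 minus siNT, ran from -0.37 for NEK2 to 0.64 for CENPF, with a median of 0.20 (all genes 0.02), and 39 of the 50 were above 0 (all genes 53.5%). The 95% interval of the difference stayed between a 2-fold decrease and a 2-fold increase in 47 of the genes, and in CENPF, AURKB and TACC3 it reached past a 2-fold increase. In 29 genes both siLEF1 arrays lay above both siNT arrays (58% of members, all genes 28.1%), in 4 both lay below (all genes 26.4%) and in 17 the groups overlapped. The 4 were CDC25C, NEK2, G2E3 and TPX2. Among 16 housekeeping genes the share on the higher side was close to that of the members. In 9 of them (56.2%) both siLEF1 arrays lay above both siNT arrays. On the lower side the shares were not alike, with 4 of the 16 against 4 of the 50 members. The median log2 difference of the housekeeping genes was 0.10. When the arrays were centred on housekeeping genes, every difference moved by -0.14, so that the median was 0.06 (all genes -0.12) and 28 of the 50 were above 0. The excess over the median of all genes was the same under that centring by construction.

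**Figure D2:**
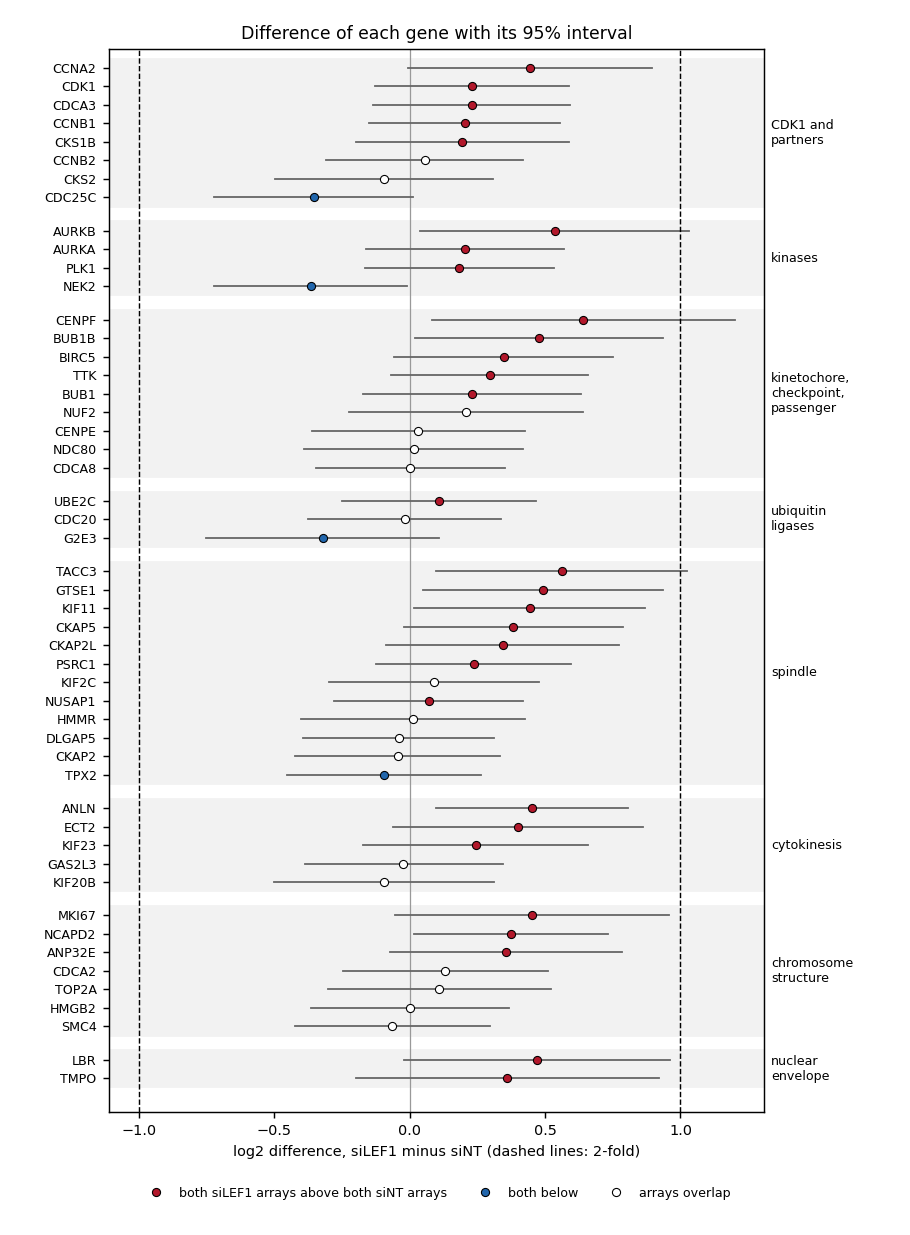
Log2 difference of siLEF1 minus siNT (horizontal axis) of each of the 50 genes, grouped by role, with the 95% interval from limma (n = 2 arrays per group). Dashed lines mark a 2-fold change, red points genes with both siLEF1 arrays above both siNT arrays (29), blue points genes with both below (4) and open points genes whose arrays overlap (17).

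The siNT arrays themselves differed in these genes. In siNT replicate 2 the signal was below that of replicate 1 in 39 of the 50, with a median difference of -0.15 (all genes -0.01, of which 51.0% were below 0), and in 25 genes the siNT arrays were further apart than the groups were. The siLEF1 arrays differed by a median of -0.04 (all genes -0.01). Set against siNT replicate 1 alone, the 50 genes had a median log2 difference of 0.12 (all genes 0.02), and both siLEF1 arrays were above it in 31 genes and below it in 15 (all genes 40.7% and 37%). Set against siNT replicate 2 alone the median was 0.24 (all genes 0.02), with 39 genes above and 6 below (all genes 42.4% and 39%). In neither fit did limma call any of the 50. Against replicate 1 the smallest adjusted p was 0.398, with 1 gene higher in value and 0 lower at an unadjusted p under 0.05 (all genes 3.81% and 9.99%), and 0% of all genes were called. Against replicate 2 it was 0.0537, with 16 higher and 2 lower (all genes 13.6% and 14.2%), and 2.89% and 1.07% of all genes were called lower and higher. Both fits share the siLEF1 arrays with each other and with the main comparison, and both assume that the lone siNT array varies like the siLEF1 pair. The lower signal in siNT replicate 2 was not confined to mitotic genes. It was seen in 59.3% of all 10324 genes with a mean log2 signal of at least 6, in 38 of 41 S phase genes and in 12 of 12 T-cell markers.

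**Figure D3:**
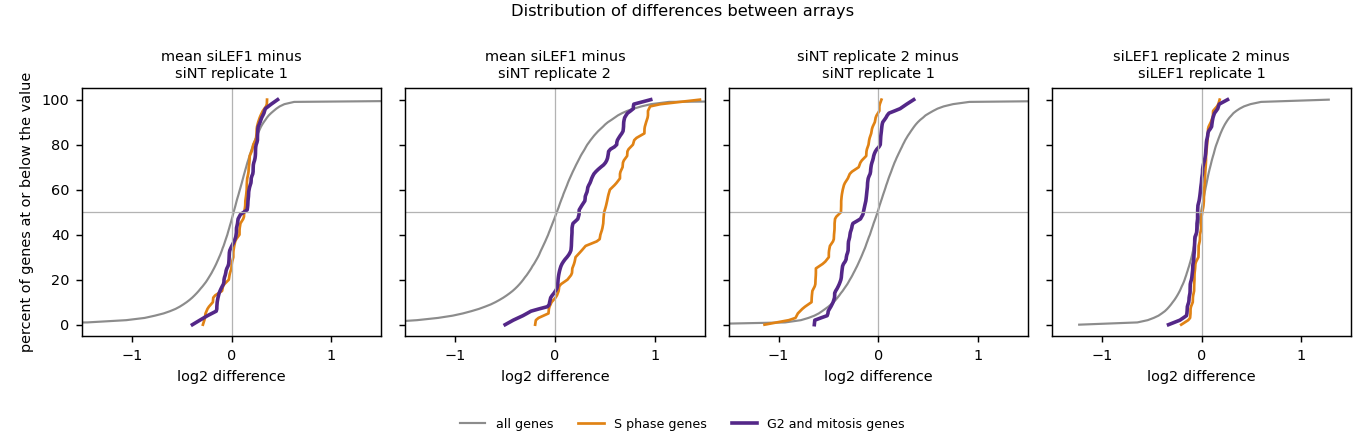
Percent of genes (vertical axis) at or below a log2 difference (horizontal axis) for all genes, S phase genes and the 50 G2 and mitosis genes, in 4 comparisons of arrays. The median of the G2 and mitosis genes is 0.12 above siNT replicate 1 and 0.24 above siNT replicate 2, and siNT replicate 2 lies 0.15 under siNT replicate 1.

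The counts by role below rest on few genes and are to be read beside all genes. Of these 28.1% had both siLEF1 arrays above both siNT arrays and 26.4% had both below. Among CDK1 and its partners, 0 of 8 genes passed, the median log2 difference was 0.20 and 5 had both siLEF1 arrays above both siNT arrays. CDK1, the kinase that starts mitosis, had log2 signals of 11.67 and 11.55 on the siLEF1 arrays and of 11.39 and 11.37 on the siNT arrays. CCNB1, its main mitotic cyclin, had 11.58 and 11.56 against 11.41 and 11.33. The groups did not overlap in either gene, and the siNT arrays were close to each other in both. Their log2 differences were 0.23 and 0.20 (each with a standard error of 0.15, adjusted p = 0.518 and 0.564 from limma), or 1.17-fold and 1.15-fold. CCNA2, the cyclin of S phase and G2, had signals of 10.55 and 10.44 against 10.26 and 9.85, and a log2 difference of 0.44 (adjusted p = 0.328 from limma). Here siNT replicate 2 stood apart, and against siNT replicate 1 alone the difference was 0.24. CDC25C, the phosphatase that removes the inhibitory phosphates of CDK1, was the gene of this role with both siLEF1 arrays below both siNT arrays, with 7.81 and 7.97 against 8.29 and 8.21, a log2 difference of -0.36 (adjusted p = 0.337 from limma). Against siNT replicate 1 it was -0.39 and against replicate 2 it was -0.32. CDCA3, which promotes mitotic entry, and CKS1B and CKS2, the small subunits bound by CDK1, had log2 differences of 0.23, 0.19 and -0.09, and CCNB2 one of 0.06. In CKS2 and CCNB2 the arrays of the groups overlapped.

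Of the 4 mitotic kinases, 0 passed, 3 had both siLEF1 arrays on the higher side and 1 on the lower side. AURKB, the kinase of the chromosomal passenger complex, had signals of 9.79 and 9.64 on the siLEF1 arrays and of 9.43 and 8.93 on the siNT arrays. Its log2 difference was 0.54 (standard error 0.21, adjusted p = 0.293 from limma), 0.28 against siNT replicate 1 and 0.79 against replicate 2. AURKA, which acts at spindle poles, had 10.97 and 10.83 against 10.66 and 10.73, and PLK1, which acts from entry into mitosis to cytokinesis, had 6.53 and 6.57 against 6.35 and 6.38. Unlike AURKB, these had siNT arrays close together, and their log2 differences of 0.21 and 0.18 (adjusted p = 0.574 and 0.602 from limma) were nearly the same against either siNT array, 0.24 and 0.17 for AURKA and 0.20 and 0.17 for PLK1. NEK2, which separates centrosomes, had 10.09 and 10.04 against 10.38 and 10.48. This was the lowest difference of the 50 genes, -0.37 (standard error 0.15, adjusted p = 0.308 from limma). Its second probe set had -0.26.

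All 9 genes of the kinetochore, the checkpoint and the passenger complex had a log2 difference above 0, 0 passed, and 5 had both siLEF1 arrays above both siNT arrays. With housekeeping centring 6 of the 9 were above 0. CENPF, which loads onto kinetochores late in G2, had signals of 9.80 and 9.72 on the siLEF1 arrays and of 9.44 and 8.80 on the siNT arrays. BUB1B, a subunit of the checkpoint complex that holds back the anaphase-promoting complex, had 10.91 and 10.87 against 10.63 and 10.20, and BIRC5, the survivin gene of the passenger complex, had 10.72 and 10.75 against 10.54 and 10.23. In all 3 the siLEF1 arrays were close and siNT replicate 2 was the lowest array. The log2 difference of CENPF was 0.64 (standard error 0.23, adjusted p = 0.268 from limma), or 1.56-fold, and it was 0.32 against siNT replicate 1 and 0.96 against replicate 2. Those of BUB1B and BIRC5 were 0.48 and 0.35 (adjusted p = 0.303 and 0.386 from limma), and 0.26 and 0.20 against siNT replicate 1 alone. The checkpoint kinases TTK and BUB1 had 0.30 and 0.23, with both siLEF1 arrays on the higher side. NDC80 and NUF2, which bind microtubules, had 0.02 and 0.21, the motor CENPE 0.03 and CDCA8, the borealin gene, 0.00, and in these 4 the groups overlapped. Each of the 9 genes had a lower signal in siNT replicate 2 than in replicate 1.

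Of the 3 genes of ubiquitin ligation 0 passed, and the groups overlapped in 1. CDC20, the activator of the anaphase-promoting complex, had signals of 11.09 and 11.09 on the siLEF1 arrays and of 11.16 and 11.05 on the siNT arrays, so that the groups overlapped (log2 difference -0.02, 95% interval -0.38 to 0.34). UBE2C, the enzyme that supplies ubiquitin to that complex, had 10.68 and 10.61 against 10.58 and 10.48, a log2 difference of 0.11 (95% interval -0.25 to 0.47) that was -0.03 with housekeeping centring. Its siLEF1 arrays lay just above both siNT arrays, and the intervals of both genes include small changes in either direction. G2E3, a ligase gene named for its expression in G2, had 8.66 and 8.54 against 8.74 and 9.10, a log2 difference of -0.32 (adjusted p = 0.450 from limma), and it was lower on each siLEF1 array than on either siNT array. Against siNT replicate 1 alone it was -0.14 and against replicate 2 it was -0.50.

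Spindle genes were the largest role, with 12 members, a median log2 difference of 0.16 (0.02 with housekeeping centring), 7 members with both siLEF1 arrays above both siNT arrays and 0 passing. TACC3, a partner of AURKA and clathrin on spindle fibers, had signals of 9.84 and 9.85 on the siLEF1 arrays and of 9.51 and 9.06 on the siNT arrays. GTSE1, which regulates microtubule stability and p53, had 9.90 and 10.01 against 9.66 and 9.27. KIF11, the motor that pushes spindle poles apart, had 10.54 and 10.60 against 10.31 and 9.95. In these 3 the siNT arrays differed by 0.36 to 0.45, against at most 0.11 between the siLEF1 arrays. Log2 differences were 0.56 for TACC3, 0.49 for GTSE1 and 0.44 for KIF11 (adjusted p = 0.249, 0.279 and 0.304 from limma), and against siNT replicate 1 alone they were 0.34, 0.30 and 0.26. CKAP5, CKAP2L and PSRC1, which act on microtubules, also lay on the higher side, with 0.38, 0.34 and 0.24. NUSAP1, which bundles microtubules, had 0.07 and did not overlap either. In KIF2C, HMMR, DLGAP5 and CKAP2, with log2 differences of 0.09, 0.01, -0.04 and -0.04, the groups overlapped. TPX2, the activator of AURKA, had both siLEF1 arrays on the lower side, by -0.10.

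Of the 5 cytokinesis genes 0 passed and 3 had both siLEF1 arrays on the higher side. ANLN, which organizes the contractile ring, had signals of 10.16 and 10.26 on the siLEF1 arrays and of 9.75 and 9.77 on the siNT arrays. It had the smallest p of the 50 genes, with a log2 difference of 0.45 (standard error 0.15, adjusted p = 0.231 from limma). It differed alike from both siNT arrays, by 0.46 and 0.44. ECT2, the exchange factor that activates RhoA at the division plane, had 10.48 and 10.39 against 10.26 and 9.82, and KIF23, a motor of the central spindle, had 9.69 and 9.36 against 9.27 and 9.30. Their log2 differences were 0.40 and 0.24 (adjusted p = 0.383 and 0.556 from limma). That of ECT2 was 0.18 against siNT replicate 1 alone, and that of KIF23 was 0.078 without siLEF1 replicate 1. KIF20B had -0.10 with overlapping groups. GAS2L3 was the single member under the lower quartile of every array, with signals between 2.25 and 2.39, so that its difference of -0.02 says nothing of its expression.

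**Figure D4:**
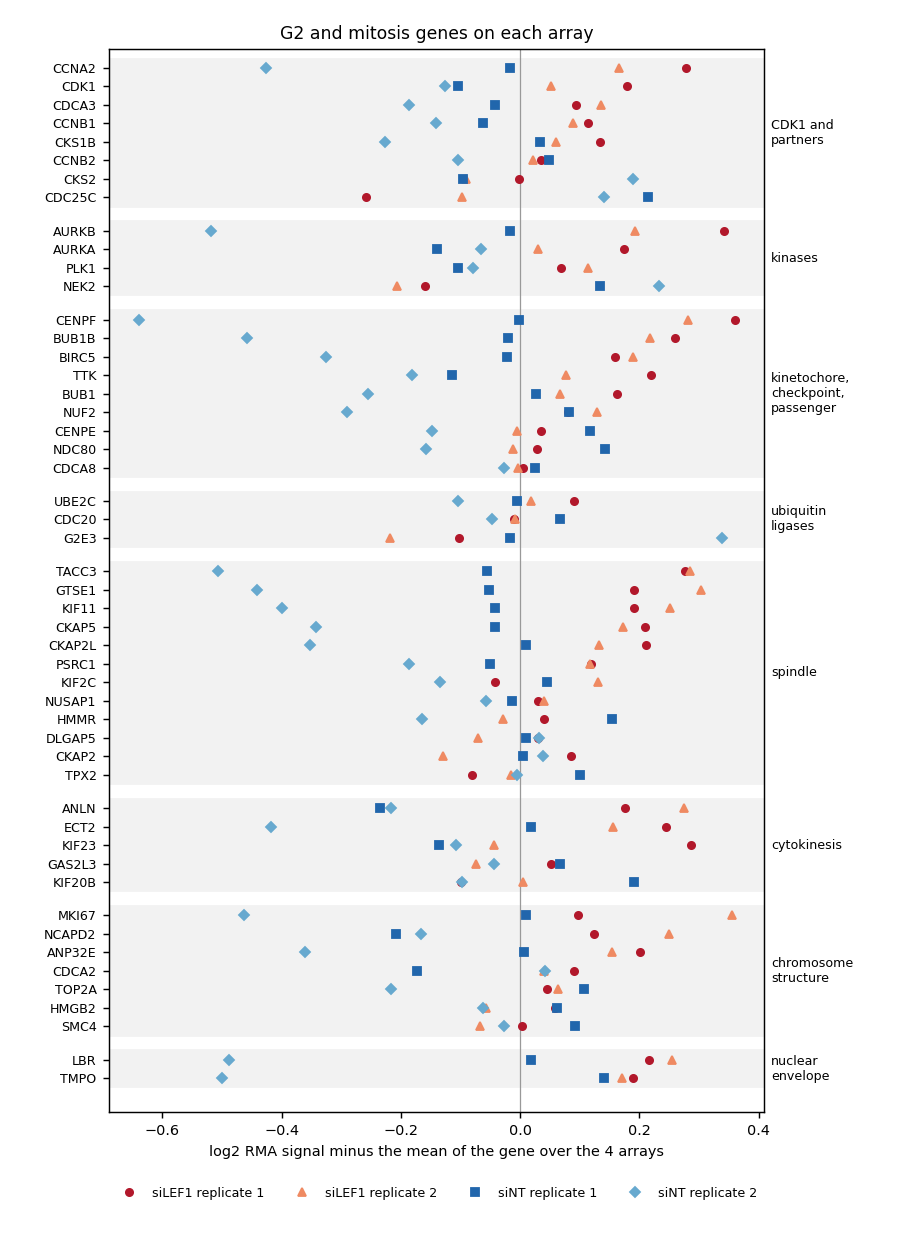
Log2 RMA signal of each of the 50 genes on each array, minus the mean of the gene over the 4 arrays (horizontal axis), grouped by role. In many genes siNT replicate 2 (light diamonds) lies apart on the lower side, as in CENPF, AURKB and TACC3, while in ANLN, NCAPD2 and PLK1 the siNT arrays lie together under the siLEF1 arrays.

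Among the chromosome structure genes 0 of 7 passed, the median log2 difference was 0.13 (-0.01 with housekeeping centring) and 3 had both siLEF1 arrays above both siNT arrays. NCAPD2, a condensin subunit, had signals of 8.55 and 8.68 on the siLEF1 arrays and of 8.22 and 8.26 on the siNT arrays, and differed by 0.40 from siNT replicate 1 and by 0.35 from replicate 2 (log2 difference 0.38, adjusted p = 0.302 from limma). MKI67, the Ki-67 proliferation antigen that coats mitotic chromosomes, had 9.59 and 9.85 against 9.51 and 9.03, a log2 difference of 0.45 (adjusted p = 0.369 from limma). Its siNT arrays were 0.47 apart, and the lower siLEF1 array was 0.09 above siNT replicate 1. ANP32E, a histone chaperone, had 11.52 and 11.47 against 11.33 and 10.96, with a log2 difference of 0.36 that was 0.17 against siNT replicate 1 alone. Its further probe sets had larger differences, 0.545 and 1.18, and did not overlap. In the probe set with 1.18 the siNT arrays lay far apart, at 6.92 and 5.29. TOP2A, the topoisomerase that untangles sister chromatids, had 10.57 and 10.59 against 10.63 and 10.31, so that both siLEF1 arrays lay between the siNT arrays. Its log2 difference was 0.11 (adjusted p = 0.814 from limma), and it was -0.05 against siNT replicate 1 and -0.03 with housekeeping centring. A further TOP2A probe set, nearly as bright, did not overlap, with 10.18 and 10.95 against 10.11 and 9.75. Its log2 difference was 0.63 (adjusted p = 0.348 from limma). HMGB2, SMC4 and CDCA2 had 0.00, -0.06 and 0.13, with overlapping groups. Both nuclear envelope genes were on the higher side. LBR, which ties heterochromatin to the envelope, had 11.29 and 11.33 against 11.09 and 10.59, and TMPO, the lamin binding protein gene, had 11.54 and 11.52 against 11.49 and 10.85. Log2 differences were 0.47 and 0.36 (adjusted p = 0.340 and 0.514 from limma), while against siNT replicate 1 alone they were 0.22 and 0.04.

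Further probe sets read the same transcripts at other places and were not used in choosing the members. Of the 50 genes 31 had 59 further single-symbol probe sets, and 35 of these, for 21 genes, had a mean log2 signal of at least 6. None of the 59 passed, with a smallest adjusted p of 0.126 from limma. Of the 35, 32 had the sign of the gene's brightest probe set, 29 were above 0, and the median log2 difference was 0.37. They were measured on the same arrays and so are not independent evidence of a difference. In MKI67 all 3 further probe sets lay above 0, at 0.63, 0.47 and 0.62. CDK1 had 0.17 and 0.24 in its brighter further probe sets, close to the 0.23 of the brightest. In CCNB1 the further probe set had a larger difference, with signals of 10.24 and 10.19 on the siLEF1 arrays and of 9.78 and 9.20 on the siNT arrays (0.72, adjusted p = 0.206 from limma), against 0.20 for the brightest. NUSAP1 had 1.06 against 0.07, with siLEF1 arrays at 8.90 and 9.79 that differed from each other by nearly as much. In G2E3 the probe sets disagreed, at -0.81, -0.63, 0.02 and 0.49. The widest gap was in SMC4, a condensin subunit, where a probe set that Affymetrix marks as open to cross-hybridization had signals of 5.515 and 7.005 on the siLEF1 arrays and of 8.19 and 8.69 on the siNT arrays (-2.18, adjusted p = 0.126 from limma), while the brightest had -0.06 and the other -0.28.

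**Figure D5:**
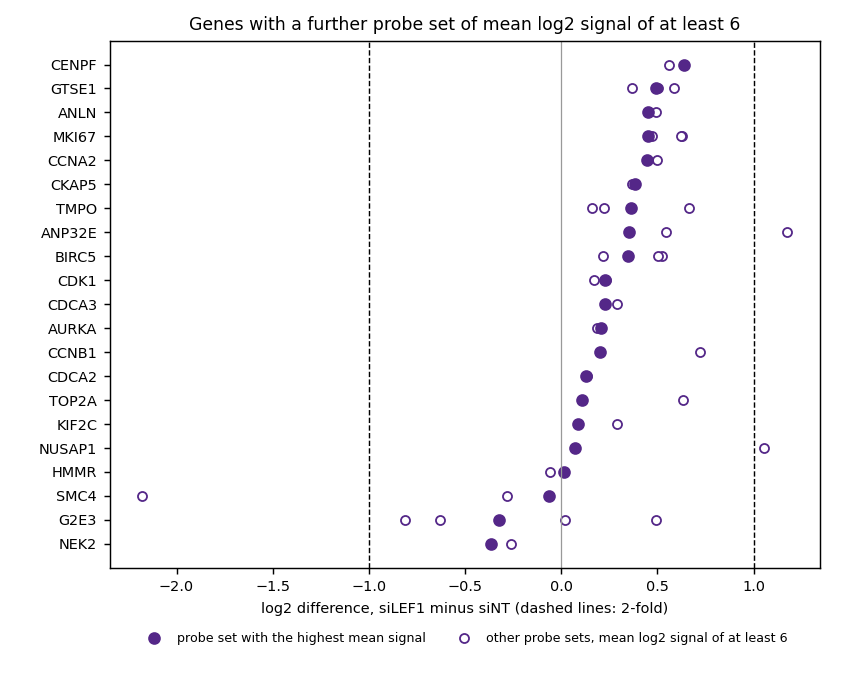
Log2 difference of siLEF1 minus siNT (horizontal axis) for the 21 genes with a further probe set of mean log2 signal of at least 6, with the brightest probe set filled and the others open. Most further probe sets lie on the same side as the brightest (32 of 35), and the probe sets of SMC4 and G2E3 are spread furthest.

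Genes that work beside the members were read from 7 lists with 129 measured genes. Limma passed 0 of them in either direction at an adjusted p under 0.05. At an unadjusted p under 0.05, 13 of the 129 were higher in value and 10 lower (all genes 7% and 11.5%). Over the 129 the median log2 difference was 0.17 (0.03 with housekeeping centring). In 61 both siLEF1 arrays lay above both siNT arrays (47.3%, all genes 28.1%), and in 19 both lay below (all genes 26.4%). The 15 regulators of mitotic transcription held the largest value. LIN37, the MuvB subunit needed for repression by DREAM, had signals of 8.30 and 8.35 on the siLEF1 arrays and of 9.67 and 10.16 on the siNT arrays, a log2 difference of -1.59 (standard error 0.20, adjusted p = 0.0562 from limma), which did not pass. A second, dim LIN37 probe set, under the median of every array but siLEF1 replicate 1, had a log2 difference of 0.17. MYBL2, which joins MuvB in S phase, had 11.09 and 11.23 against 10.64 and 9.97, a log2 difference of 0.86 (adjusted p = 0.186 from limma), and TFDP1, the partner of E2F factors, had 0.57. The siNT arrays differed by 0.67 in MYBL2.

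Of 15 regulators of mitotic entry and exit, BORA and MASTL, which activate PLK1 and block the phosphatase PP2A, had log2 differences of -0.67 and -0.57, and CCNF one of 0.55 (adjusted p = 0.150, 0.202 and 0.276 from limma). Of 16 subunits and inhibitors of the anaphase-promoting complex, ANAPC10 and CDC26 had -0.84 and -0.55 and ANAPC15 had 0.54 (a further ANAPC10 probe set had -0.14), and the median of the list was 0.02. Among 30 other kinetochore, centromere and checkpoint genes CENPC, which builds the inner kinetochore, had -1.11, MIS12 -0.60 and SPC25 0.61, around a median of 0.18. For the 16 cohesin and separase genes the median was 0.13, with -0.64 for WAPL, which releases cohesin, 0.41 for CDCA5 and -0.44 for NIPBL. Other probe sets did not bear out the values of WAPL and NIPBL as a whole, with 0.35, -0.55 and 0.27 for WAPL and 0.00, -0.31, 0.15 and 0.07 for NIPBL. For the 9 condensin and compaction genes it was 0.22, with 0.45 for SMC2, 0.45 for NCAPH and 0.37 for NCAPG2, alongside the member NCAPD2. Among 28 other spindle and cytokinesis genes the median was 0.19, with 0.47 for TUBG1, 0.41 for SPAG5 and 0.64 for the motor KIFC1. The medians were above 0 in each of the 7 lists and stayed so with housekeeping centring in 5, the anaphase-promoting complex and cohesin lists being the exceptions.

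S phase genes, which are transcribed before the members, are given for comparison. Over 41 S phase genes the median log2 difference was 0.30, against 0.20 in the G2 and mitosis genes. In 25 of the 41 (61%) both siLEF1 arrays lay above both siNT arrays, against 58% (all genes 28.1%). In 5 of the 41 both lay below (all genes 26.4%). With housekeeping centring the medians were 0.16 and 0.06, and 30 of 41 and 28 of 50 genes were above 0. Against siNT replicate 1 alone the medians were 0.13 and 0.12, and against siNT replicate 2 alone 0.49 and 0.24. The siNT arrays differed by a median of -0.37 in S phase genes and of -0.15 in G2 and mitosis genes. CCNE2, the cyclin that opens S phase, had 0.54, the replication factor gene GINS2 0.63 and UHRF1, which maintains DNA methylation, 0.50, and 0 of the 41 passed. The difference between the lists was not tested. Within the members, the 29 genes with the word TTTGAA in the window had a median log2 difference of 0.19 and the 13 without it 0.23. Both kinds covered about the same range, -0.36 to 0.64 and -0.37 to 0.56. For the CCAAT box, the 30 members with it had a median of 0.23 and the 12 without it 0.06. Their ranges were -0.37 to 0.64 and -0.32 to 0.56. Neither split was tested.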

How the data were processed

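Signals of Affymetrix HG-U133 Plus 2.0 arrays were processed by the authors with RMA (Expression Console 1.1 per the submitters' processing notes), which corrects background, equalizes the distributions of arrays and summarizes probe sets. The deposited values are log2 signals, 1 per probe set and array, with no filter. The number of arrays limits their precision. From these, siLEF1 minus siNT was tested by limma's moderated linear model (version 3.58.1, R 4.3.3, 2-sided) over 54613 probe sets, without 62 control probe sets, with Benjamini-Hochberg adjustment. The methods' comparison of 3 groups was reduced to the 2 groups at hand. Symbols came from the platform annotation, updated by Entrez number: 41091 probe sets had 1 symbol, 1801 several and 11721 none. Members and lists were chosen with earlier results of these data known. Values on every array are given for CDK1, CCNB1, AURKA, PLK1, TOP2A and MKI67, for up to 3 genes per role with the smallest p, for the 3 highest and 3 lowest differences and, in other lists, differences for up to 3 genes with the smallest p. The model was also run on simulated arrays with known changes and independent errors. These hold no shift shared by many genes of 1 array, so that they do not bear on the difference between the siNT arrays. Promoters came from RefSeq. Alternatives were a filter on dim probe sets, other moderation, a replicate block, other centring, other choices of probe sets and fold threshold, and each array left out.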

Additional observations from a re-analysis of the deposited data

How the results depend on the processing

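The count of 0 called members in either direction was the same under every alternative that was run: the filter at a mean log2 signal of 6 (49 members), trended and robust or no moderation, both centrings, removal of _x_at and _s_at probe sets (41 members), 1 probe set per gene, the mean of all probe sets, a fold threshold of 1.5 or none, and leaving out any single array (0 to 0). The median log2 difference of 0.20 stayed above 0, between 0.12 and 0.24 with an array left out and at 0.06 with housekeeping centring. Genes with both siLEF1 arrays below both siNT arrays, 4 in all, were 15 with housekeeping centring (all genes 42.4%), 2 without _x_at and _s_at probe sets (all genes 23.8%), and 5 to 15 with an array left out: 15 without siNT replicate 2 (all genes 37%), 8 without siLEF1 replicate 1 (36.5%), 6 without siNT replicate 1 (39%) and 5 without siLEF1 replicate 2 (34.7%). Genes with both above, 29 in all, were 20 with housekeeping centring (all genes 13.3%) and 31 to 39 with an array left out (all genes 37% to 42.4%). The cause was not tested. The sign of the difference turned in 11 of the 50 members with housekeeping centring and in 9 without siNT replicate 2, when 18 were below 0. Among the genes whose values on every array are given, none of them called, it turned for CDC20 (0.039 without siNT replicate 1, -0.076 to 0.039 with an array left out), CDC25C and CENPF (0.042 and -0.132 without _x_at and _s_at probe sets, both then read by dim probe sets), TMPO (-0.01 with the mean of all probe sets), UBE2C (-0.031 with housekeeping centring) and TOP2A (-0.032 with housekeeping centring and -0.053 without siNT replicate 2, -0.053 to 0.271 with an array left out). The labels number replicates 1 and 2 in each group without saying that a number marks a shared batch. Deviations of same-numbered arrays had a weak negative correlation (r = -0.155 across probe sets). With the replicate number as a block 0 members were called lower and 0 higher, while calls over all probe sets went from 100 lower and 13 higher to 977 and 120. With crossed numbers as a block, chosen after seeing the data, 0 members and 763 lower and 159 higher probe sets were called.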
